A study of Mus musculus with 11 samples.

Results

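Of 10 genes that govern mitochondrial apoptosis and the p53 response, 9 had a row, matched by symbol, in a table of 10992 genes. They were the survival genes Bcl2, Bcl2l1 and Mcl1, the pore-forming gene Bax, the BH3-only genes Bcl2l11, Bbc3 and Pmaip1, and the p53 targets Cdkn1a and Mdm2. Bak1, the other pore-forming gene of the set, was not analysed here. The values are RPKM, read numbers divided by gene length and by library size. All 9 genes passed a filter of at least 1 RPKM in at least 2 libraries, as did 10429 genes in all. RNA had been sequenced in bulk from Foxp3-expressing regulatory T cells (Tregs), sorted live by CD3, CD4 and Foxp3 from visceral adipose tissue (VAT) or spleen. All mice were males aged 25 weeks with a YFP-Cre recombinase expressed from Foxp3, the controls included. They were Srebf2-wt/wt (WT) or Srebf2-flox/flox (KO), so that Cre could delete Srebf2, the gene of the sterol-sensing transcription factor SREBP2, in cells that express Foxp3. The analysis used 3 libraries each of VAT WT and VAT KO, and replicates 2 and 3 of spleen WT and of spleen KO. Whether each library came from its own mouse is not stated, so the p-values speak of the spread between libraries, which may be technical.

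Cells die by the mitochondrial route when BAX or BAK forms pores in the outer mitochondrial membrane. BCL2, BCL-XL (from Bcl2l1) and MCL1 hold these pore formers in check, and the BH3-only proteins BIM (Bcl2l11), PUMA (Bbc3) and NOXA (Pmaip1) bind the survival proteins and free the pore formers. The transcription factor p53 can induce Bbc3, Pmaip1 and Bax, as well as Cdkn1a, which encodes the cell cycle inhibitor p21, and Mdm2, which encodes the ligase that marks p53 for destruction. Tregs are known to depend on MCL1 and to be culled by BIM.

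The targeted gene was low in every KO library. Srebf2 stood at 0.263 to 1.23 RPKM in VAT KO against 15.6 to 30.5 in VAT WT, and at 1.59 to 2.59 in spleen KO against 10.51 to 23.2 in spleen WT. Its log2 change was -3.67 ± 0.33 in VAT (limma adjusted p = 0.00081) and -2.45 ± 0.40 in spleen, which did not pass (adjusted p = 0.244), without overlap in either tissue. Foxp3 was detected in every library, at 13.3 to 16.4 RPKM in VAT libraries and 6.97 to 8.87 in spleen libraries, and all 10 genes of a Treg identity list were in the table. Of 10 measured genes of adipose Tregs, 9 were higher in VAT than in spleen in each genotype at a limma adjusted p under 0.05. Over all tested genes 10.7% were in WT and 7.65% in KO. Each library summed to 185319 to 210778 RPKM, and read depth was unknown. The 2 spleen WT libraries were less alike than those of other groups, with a correlation across genes of 0.932 against 0.968 to 0.974. The fit shared a single spread per gene among all groups, so this difference entered the errors of every comparison. Among markers of other cells, the B cell list (7 of 12 genes in the table, without Pax5, Ebf1 and Ighm) had sums of 60.1 to 220.3 RPKM among VAT libraries and of 99.5 to 134 among spleen libraries. The myeloid list (4 of 15, without Lyz2, Csf1r and Itgam) summed to 12.3 to 15.2 in VAT WT, 20.2 to 45.6 in VAT KO and 179 to 240.5 in spleen. Of 9 genes each, the neutrophil list had Mmp9 (112 to 217 RPKM in VAT, 0.387 to 4.93 in spleen), the stromal list Pecam1 (4.39 to 11.8 and 15.9 to 34.9) and the adipocyte list Lipe (1.63 to 2.96 and 2.26 to 3.40). CD8, NK and gamma-delta T cells had 3 of 9 (without Klrd1, Ncr1 and Eomes), at 74.7 to 190.6 RPKM over VAT libraries and 35.0 to 61.4 over spleen libraries. Most of the VAT sum was Nkg7, at 56.4 to 178.5 RPKM in VAT WT and 92.7 to 119 in VAT KO. Only Nkg7 was called higher in VAT, and the other 2 had log2 changes below 0 in each genotype. The part of other cells in the results was not tested.

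Between fat and spleen 4 of the 9 genes differed, in both genotypes. Bcl2 was lower in fat than in spleen, while Bcl2l1, Pmaip1 and Cdkn1a were higher. The other 5, Mcl1, Bax, Bcl2l11, Bbc3 and Mdm2, did not pass the test between tissues in either genotype. Between Srebf2 genotypes none of the 9 passed in VAT or in spleen. Bcl2 came nearest, at 1.74 times its WT level in VAT KO (adjusted p = 0.0520).

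**Figure D1:**
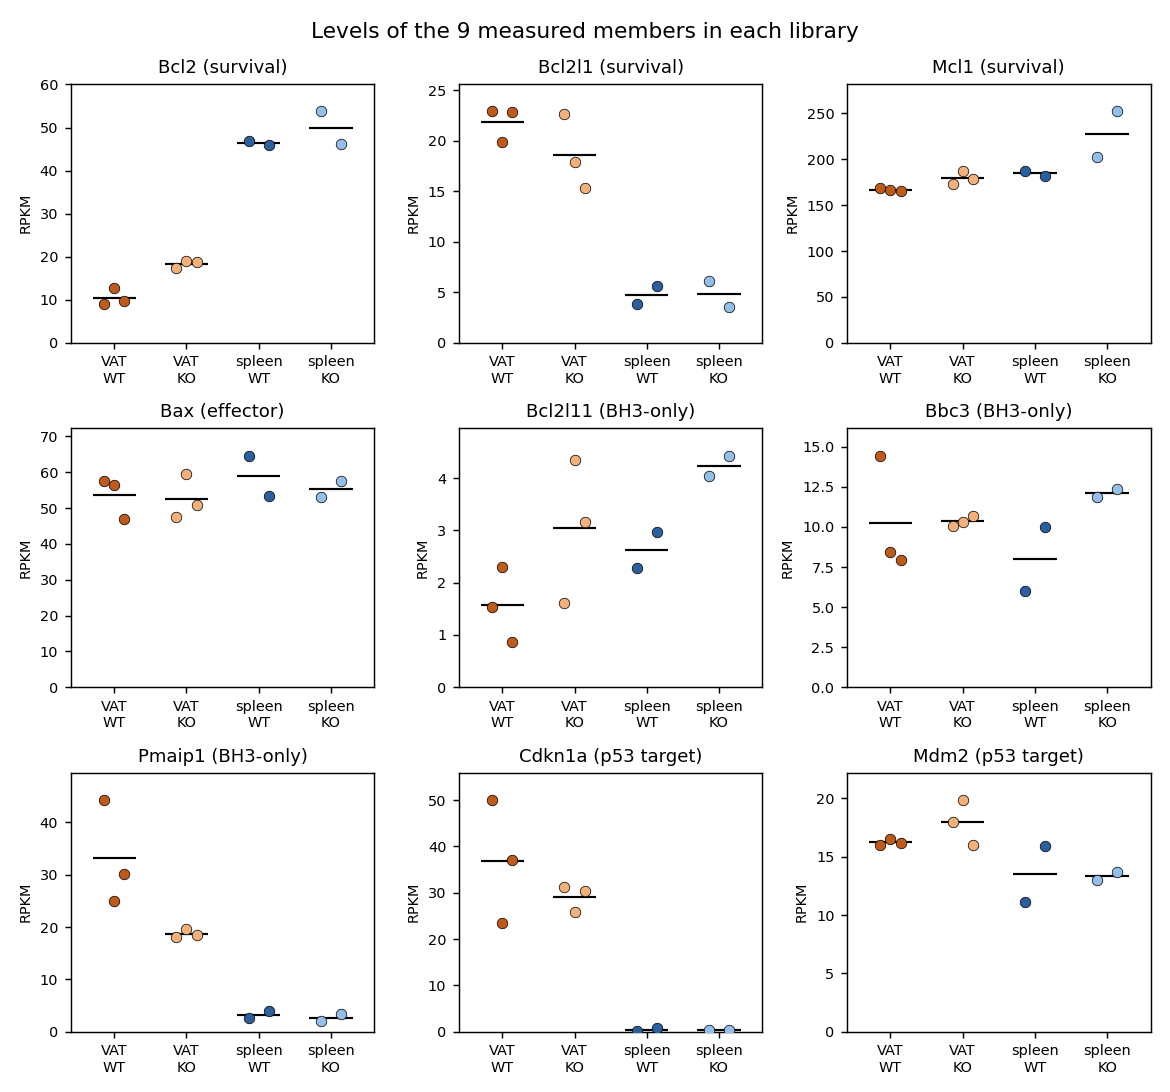
RPKM of each of the 9 genes in every library (points) with the group mean (line), on axes that start at 0. Cdkn1a lies between 23.6 and 49.9 RPKM in the 6 VAT libraries and at or under 0.739 in the 4 spleen libraries, while Bax and Mcl1 keep to a narrow range throughout.

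The comparison of VAT with spleen asked how the survival genes differ between adipose and lymphoid Tregs. It was made for WT and for KO in the same fit, limma on log2(RPKM + 1), and all fold changes below on the log2 scale carry that pseudocount, which understates the change of low genes. In WT, 3 of the 9 genes were called higher and 1 lower at an adjusted p under 0.05, where 10.7% and 15.4% of all 10429 tested genes were. In KO, 3 were again called higher and 1 lower, where 7.65% and 6.94% of all genes were. The 4 calls are thus 4 of 9 members against 26.1% of all genes in WT and 14.6% in KO. The sets of libraries did not overlap for 6 of the 9 genes in WT (4 higher, 2 lower in VAT), where 49.1% of all genes did not (18.1% higher, 31% lower), and for 7 of the 9 in KO (4 higher, 3 lower), where 50.4% did not (20% and 30.4%). With so few libraries, absence of overlap is common over the whole table. In bulk RNA, fewer cells with a transcript and less of it per cell cannot be told apart.

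Among the 3 survival genes, Bcl2 was called lower in fat. Bcl2 (Entrez 12043; chromosome 1, 106538176 to 106714290 in mm10, minus strand) stood at 9.12, 12.6 and 9.71 RPKM in the 3 VAT WT libraries. It stood at 47.0 and 46.1 RPKM in the 2 spleen WT libraries. In KO the values were 17.3, 18.9 and 18.7 RPKM in VAT against 53.7 and 46.2 in spleen. Every VAT library lay below every spleen library, and VAT KO lay between VAT WT and spleen. The WT mean in VAT was 10.49 ± 1.88 RPKM (SD, n = 3) against 46.5 ± 0.65 in spleen (n = 2), 4.43 times higher in spleen. The log2 change was -2.06 ± 0.17 (SE; limma adjusted p = 2.0e-06). In KO, spleen was 2.73 times higher, and the log2 change was -1.40 ± 0.17 (limma adjusted p = 9.5e-05). An antisense gene, D630008O14Rik, overlaps 6.09% of the exon bases of Bcl2, and the library kit does not mark strand.

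Bcl2l1, which encodes BCL-XL, was higher in fat. Bcl2l1 (Entrez 12048; chromosome 2, 152758732 to 152833803 in mm10, minus strand) stood at 22.9, 19.9 and 22.9 RPKM in VAT WT and at 3.82 and 5.66 in spleen WT. In KO it stood at 22.7, 17.9 and 15.3 RPKM in VAT and at 6.14 and 3.515 in spleen. The lowest VAT library was still above the highest spleen library. Mean RPKM in VAT was 4.62 times that in spleen in WT and 3.86 times in KO. The log2 change was 2.01 ± 0.24 in WT (limma adjusted p = 5.9e-05) and 1.77 ± 0.24 in KO (limma adjusted p = 0.00026).

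Mcl1, the survival gene with a short-lived product, was the most abundant of the 9 in every library and ranked in the top few percent of the table in each group. It stood at 168, 167 and 166 RPKM in VAT WT, at 174, 187 and 179 in VAT KO, at 188 and 182 in spleen WT, and at 202 and 252 in spleen KO. VAT lay below spleen in each genotype, by a small margin. The log2 change between tissues was -0.14 ± 0.13 in WT (95% interval -0.42 to 0.13; limma adjusted p = 0.428) and -0.33 ± 0.13 in KO (interval -0.61 to -0.05; adjusted p = 0.108). It passed in KO with quantile normalization (-0.60, limma adjusted p = 0.0063) and without either spleen WT library (0.0429 without replicate 2 and 0.0435 without replicate 3).

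Since RPKM is scaled by length, the 3 survival genes can be set side by side. The gene lengths used were not stated, so ratios and shares between genes are approximate. In spleen, Bcl2 exceeded Bcl2l1 by 8.14 to 13.1 times in the 4 libraries. In VAT WT, Bcl2 was at 0.398 to 0.636 times the level of Bcl2l1, and in VAT KO at 0.761 to 1.22 times. The order of these 2 genes was thus reversed between spleen and VAT WT, and they were close to equal in VAT KO. Bcl2 made up 15.3% to 20.5% of the summed RPKM of the 3 genes in spleen, 4.55% to 6.35% in VAT WT and 8.08% to 8.80% in VAT KO. Bcl2l1 made up 1.16% to 2.43% in spleen and 7.203% to 11.53% in VAT. Mcl1 held 77.2% to 84.0% in all libraries, so the sum moved less than its smaller parts: it was 198.5 to 200.4 RPKM in VAT WT, 213 to 224 in VAT KO, 233 to 239 in spleen WT and 262 to 302 in spleen KO. The shares and sums leave out 4 further survival genes, at 295 to 361 RPKM summed in VAT and 104 to 196 in spleen. With those added, every VAT library lay above every spleen library, so the order given here is that of these 3 genes alone. The sums describe RNA and carry no test.

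**Figure D2:**
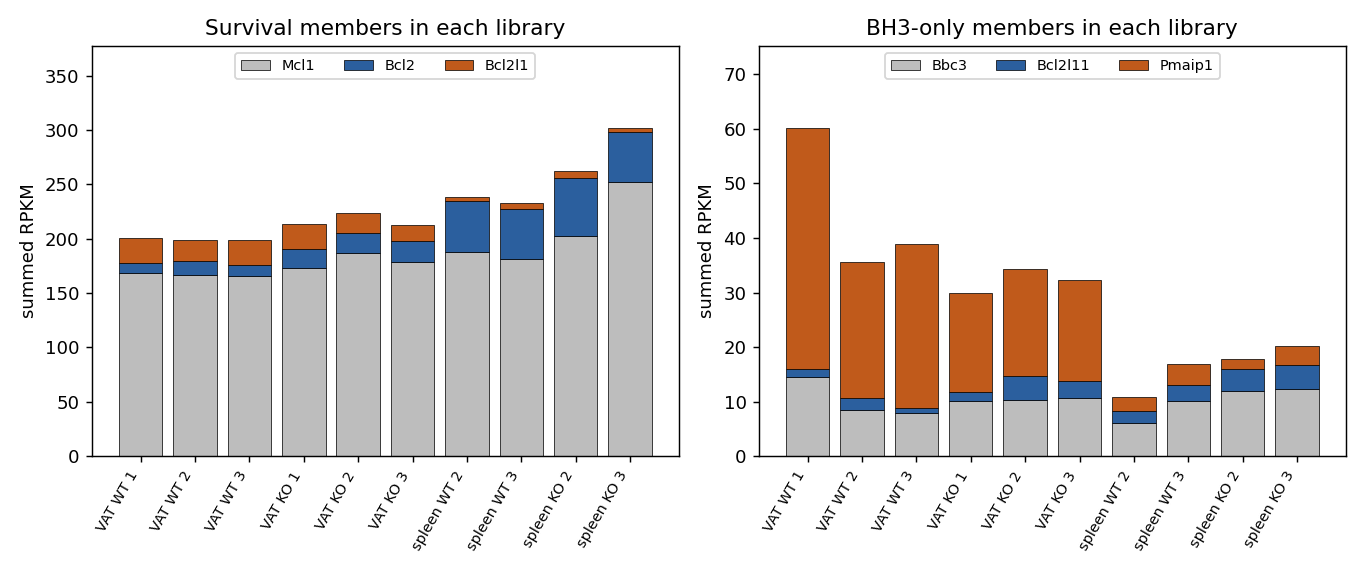
Summed RPKM of the survival genes Bcl2, Bcl2l1 and Mcl1 (left) and of the BH3-only genes Bcl2l11, Bbc3 and Pmaip1 (right) in each library, stacked by gene from 0. In the left panel Bcl2l1 is visible in VAT and thin in spleen, and in the right panel Pmaip1 forms most of each VAT bar, 57.1% to 77.4%, and 11.01% to 23.5% of each spleen bar.

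Bax, whose product forms the pore, did not pass in any comparison. It stood at 57.5, 56.6 and 47.0 RPKM in VAT WT, at 47.4, 59.7 and 51.0 in VAT KO, at 64.6 and 53.4 in spleen WT and at 53.01 and 57.5 in spleen KO. The groups overlapped in every comparison. The exons of Gm45808, on the same strand, share 12.2% of the bases of Bax. The log2 change between tissues was -0.13 ± 0.16 in WT (95% interval -0.47 to 0.21; limma adjusted p = 0.564) and -0.07 ± 0.16 in KO (interval -0.41 to 0.27; adjusted p = 0.817). Its sign turned with quantile normalization (0.02 in WT, 0.003 in KO) and with median ratio scaling (0.003 and 0.02).

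Pmaip1, which encodes NOXA, a BH3-only protein that binds MCL1, was higher in fat. Pmaip1 (Entrez 58801) stood at 44.2, 25.0 and 30.2 RPKM in VAT WT and at 2.54 and 3.93 in spleen WT. In KO it stood at 18.2, 19.6 and 18.5 RPKM in VAT and at 1.97 and 3.45 in spleen. The tissues did not overlap, and within VAT the 3 KO libraries lay below the 3 WT libraries. VAT was 10.2 times spleen in WT (log2 change 2.99 ± 0.26, limma adjusted p = 3.2e-06) and 6.93 times in KO (2.44 ± 0.26, limma adjusted p = 3.4e-05).

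Bcl2l11 and Bbc3, the genes of BIM and PUMA, did not pass between tissues. Bcl2l11 was the lowest of the 9 genes in VAT, at 1.54, 2.30 and 0.870 RPKM in WT and at 1.62, 4.35 and 3.17 in KO. In spleen it stood at 2.29 and 2.96 in WT and at 4.04 and 4.42 in KO. The tissues overlapped in each genotype, with log2 changes of -0.53 ± 0.32 in WT (interval -1.22 to 0.16; limma adjusted p = 0.237) and -0.43 ± 0.32 in KO (-1.12 to 0.26; adjusted p = 0.416). Bbc3 stood at 14.4, 8.41 and 7.93 RPKM in VAT WT, at 10.1, 10.3 and 10.7 in VAT KO, at 5.998 and 10.015 in spleen WT and at 11.9 and 12.4 in spleen KO. Its log2 change between tissues was 0.31 ± 0.25 in WT (interval -0.24 to 0.87; limma adjusted p = 0.389) and -0.21 ± 0.25 in KO (-0.76 to 0.34; adjusted p = 0.651). In KO the 3 VAT values of Bbc3 lay below both spleen values, and in WT the tissues overlapped.

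The sum of the 3 BH3-only genes ranged from 29.9 to 60.2 RPKM across VAT and from 10.8 to 20.2 across spleen. Bbc3 was the largest part in every spleen library, at 55.4% to 66.4%, and Pmaip1 in every VAT library. The 3 summed survival genes were 3.33 to 7.14 times the 3 summed BH3-only genes in VAT and 13.8 to 22.0 times in spleen. This describes RNA levels without a test. The ratio leaves out 4 further survival genes, at 295 to 361 RPKM summed in VAT and 104 to 196 in spleen. Also left out are 6 further BH3-only and killer genes, at 63.2 to 75.7 RPKM summed in VAT and 53.6 to 77.3 in spleen. With these genes added to each side, the ratios of VAT and spleen libraries overlap. The tissue contrast in the ratio thus holds only for the genes summed here and not for the wider family. In WT, Bcl2 alone was 5.49 to 11.2 times Bcl2l11 in VAT and 15.5 to 20.5 times in spleen, without overlap. In KO it was 4.34 to 10.7 times in VAT and 10.4 to 13.3 times in spleen, with overlap.

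Cdkn1a, which encodes p21, had the widest tissue difference of the 9. Cdkn1a (Entrez 12575; chromosome 17, 29090979 to 29100722 in mm10, plus strand) stood at 49.9, 23.6 and 37.2 RPKM in VAT WT and at 0.180 and 0.739 in spleen WT. In KO it stood at 31.3, 25.7 and 30.3 RPKM in VAT and at 0.374 and 0.410 in spleen. In spleen Cdkn1a was thus among the lowest genes of the table, and in VAT among the higher ones, at percentiles of 3.92 and 90.6 in WT and of 5.16 and 87.2 in KO. The log2 change was 4.66 ± 0.28 in WT (limma adjusted p = 1.4e-07) and 4.43 ± 0.28 in KO (limma adjusted p = 2.9e-07). The ratio of mean RPKM was 80.3 in WT and 74.3 in KO. With spleen values under 1 RPKM and no counts, these ratios are loose, and the log2 change ran from 2.89 with a pseudocount of 5 to 6.19 with one of 0.1 in WT. An unclassified gene model on the opposite strand, AC167363.2, overlaps 7.68% of its exon bases.

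Mdm2, which p53 also induces, did not pass between tissues. It stood at 16.0, 16.6 and 16.1 RPKM in VAT WT, at 18.0, 19.8 and 16.0 in VAT KO, at 11.1 and 15.9 in spleen WT and at 13.0 and 13.7 in spleen KO. VAT lay above spleen in each genotype by a narrow margin, with log2 changes of 0.27 ± 0.18 in WT (interval -0.12 to 0.65; limma adjusted p = 0.288) and 0.40 ± 0.18 in KO (0.01 to 0.78; adjusted p = 0.164). It passed in WT without spleen WT replicate 3 (0.50, limma adjusted p = 0.0420).

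**Figure D3:**
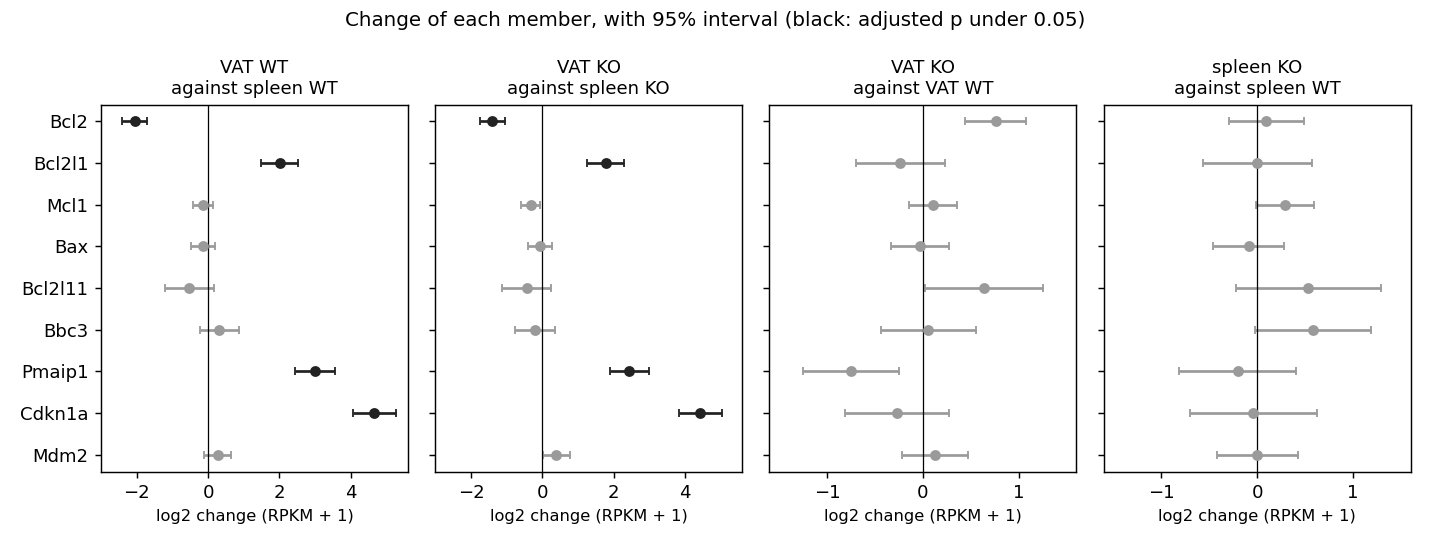
log2 change of each gene with its 95% interval in 4 comparisons; black marks an adjusted p under 0.05, and the tissue panels have a wider axis than the genotype panels. Bcl2 lies to the left and Bcl2l1, Pmaip1 and Cdkn1a to the right in both tissue panels, and no gene is black in the genotype panels.

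To show what lies before the starts of genes that did and did not differ between tissues, the 250 bases upstream are given for Bcl2 and Cdkn1a, which lie at the ends of the range, and for the p53 targets Bax and Mdm2, which did not pass. The sequences are from RefSeq on GRCm38.p6, which is mm10, and read 5′ to 3′ on the strand of the gene. Capitals mark each match, on either strand, of the GC box GGGCGG, the CCAAT box, the TATA box TATAAA, the AP-1 site TGANTCA or the p53 half-site consensus, and matches may overlap. Cdkn1a has 2 annotated starts.
Bcl2 (chr1:106714291-106714540, minus strand): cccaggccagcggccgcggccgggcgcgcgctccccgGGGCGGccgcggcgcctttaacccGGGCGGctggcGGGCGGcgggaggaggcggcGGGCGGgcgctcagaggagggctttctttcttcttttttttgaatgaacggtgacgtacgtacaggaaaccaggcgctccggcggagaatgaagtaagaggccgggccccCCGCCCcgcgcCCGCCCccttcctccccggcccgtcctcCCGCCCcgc
Cdkn1a, upstream start (chr17:29090729-29090978, plus strand): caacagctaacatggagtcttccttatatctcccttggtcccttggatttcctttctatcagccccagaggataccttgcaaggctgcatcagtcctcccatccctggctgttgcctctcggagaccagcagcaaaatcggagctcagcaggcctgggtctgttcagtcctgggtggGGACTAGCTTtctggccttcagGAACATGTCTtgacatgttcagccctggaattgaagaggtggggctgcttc
Cdkn1a, downstream start (chr17:29093519-29093768, plus strand): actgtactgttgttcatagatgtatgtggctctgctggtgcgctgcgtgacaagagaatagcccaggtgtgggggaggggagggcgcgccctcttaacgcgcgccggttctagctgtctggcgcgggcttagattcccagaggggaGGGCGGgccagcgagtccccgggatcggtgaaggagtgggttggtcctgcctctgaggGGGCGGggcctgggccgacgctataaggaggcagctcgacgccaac
Bax (chr7:45466899-45467148, minus strand): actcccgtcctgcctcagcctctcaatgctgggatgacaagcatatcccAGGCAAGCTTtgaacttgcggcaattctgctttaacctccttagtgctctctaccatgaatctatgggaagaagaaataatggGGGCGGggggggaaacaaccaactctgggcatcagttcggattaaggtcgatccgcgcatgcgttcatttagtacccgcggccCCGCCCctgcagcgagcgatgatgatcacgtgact
Mdm2 (chr10:117710759-117711008, minus strand): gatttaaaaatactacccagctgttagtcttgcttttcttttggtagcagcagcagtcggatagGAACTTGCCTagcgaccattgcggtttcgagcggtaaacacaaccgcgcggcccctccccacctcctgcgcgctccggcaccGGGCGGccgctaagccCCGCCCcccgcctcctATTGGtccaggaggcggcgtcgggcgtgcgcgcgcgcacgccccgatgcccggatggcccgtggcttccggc
The Bcl2 window was 74.8% G or C, against a median of 52.4% over 32851 windows, and held 7 matches of GGGCGG and none of the other motifs. At the upstream start of Cdkn1a there were 2 matches of the p53 half-site consensus and none of GGGCGG, and at its downstream start 2 of GGGCGG and none of the half-site. Bax and Mdm2 each held 1 half-site and 2 matches of GGGCGG, and Mdm2 also 1 of CCAAT. Over all windows 7.13% held the half-site, 32.7% GGGCGG, 33.9% the CCAAT box, 12.4% the TATA box and 6.75% the AP-1 site. Bbc3, another p53 target that did not pass, held no half-site in the windows of its 3 starts. Bcl2l1, which was higher in fat, held none of these motifs in the windows of its 3 starts, at 47.6% to 53.2% G or C. A match is a description of the letters and not a site.

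The wider p53 response was read from 2 lists, one of p53 and its regulators and one of 30 further targets. Trp53 itself was lower in fat, at 21.9 ± 2.54 RPKM in VAT WT (SD, n = 3) against 38.5 ± 1.00 in spleen WT (n = 2), with log2 changes of -0.79 ± 0.17 in WT (limma adjusted p = 0.00425) and -0.57 ± 0.17 in KO (adjusted p = 0.0385). Of 13 tested regulators, 0 were higher and 2 lower in WT, and 1 was lower in KO, Trp53. The 2 in WT were Trp53 and the checkpoint kinase Chek2 (-1.22 ± 0.38, limma adjusted p = 0.0345). Chek2 was near the floor, at a mean of 0.648 RPKM in VAT WT and at 1.515 and 4.879 in spleen WT. Of 27 tested targets, 5 were higher and 2 lower in WT, where 10.7% and 15.4% of all genes were, and 6 higher and 1 lower in KO, where 7.65% and 6.94% were. The median log2 change of the targets was 0.05 in WT and -0.04 in KO, beside -0.12 and -0.09 over all tested genes.

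The targets that were higher in fat included 3 that stood apart in size. Btg2, an antiproliferative gene, stood at 581 ± 32.1 RPKM in VAT WT against 97.4 ± 1.91 in spleen WT (log2 change 2.56 ± 0.13, limma adjusted p = 2.4e-08). The stress-responsive kinases Plk2 and Plk3 had log2 changes of 2.51 ± 0.23 and 2.22 ± 0.18 in WT (limma adjusted p = 7.3e-06 and 2.0e-06). Smaller rises were measured for Rrm2b, a ribonucleotide reductase subunit (0.70 in WT, 1.16 in KO), and Tnfrsf10b, a death receptor (0.84 and 1.01). Fas, the death receptor, was lower in fat, at 5.64 ± 0.45 RPKM in VAT WT against 31.2 ± 1.597 in spleen WT (log2 change -2.28 ± 0.21, limma adjusted p = 6.6e-06; KO -1.49, adjusted p = 0.00039). The other target that was lower in WT was Tnfaip8 (-0.71 ± 0.22, limma adjusted p = 0.0308), named here after its values were seen.

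**Figure D4:**
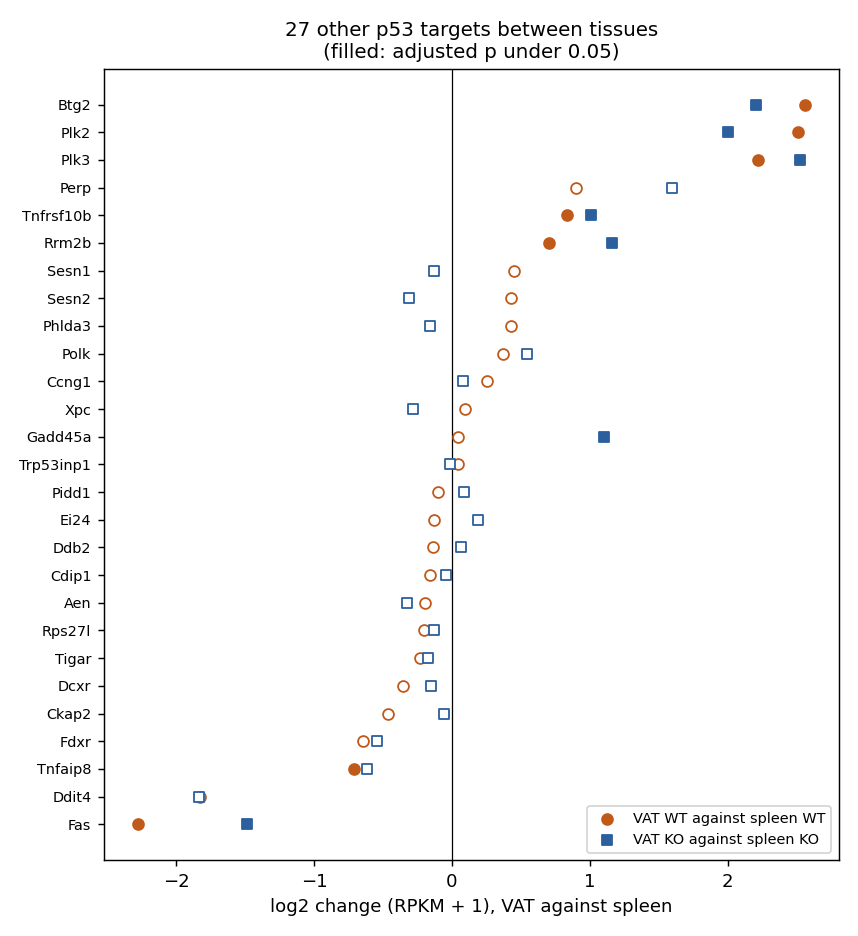
log2 change between VAT and spleen for the 27 tested targets of the wider p53 list, in WT (circles) and in KO (squares), filled where the adjusted p was under 0.05. Btg2, Plk2 and Plk3 lie at 1.999 or higher in both genotypes and Fas is lowest in WT at -2.28, with most other targets unfilled.

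Genes induced by stress and tissue handling differed between the tissues in the same libraries. All 24 genes of a list of immediate early and dissociation genes were tested. In WT 19 were called higher and 2 lower in VAT, beside 10.7% and 15.4% of all genes. In KO 19 were called higher and 1 lower, beside 7.65% and 6.94%. The median log2 change was 3.51 in WT and 3.599 in KO, beside -0.12 and -0.09 over all tested genes. The list summed to 8855 to 10004 RPKM in VAT WT, 7992 to 8341 in VAT KO and 1202 to 1472 in spleen. Dusp1, a phosphatase that turns off MAP kinases, was at 4.70 in WT and 4.24 in KO on the log2 scale, and Junb, an AP-1 subunit, at 3.55 and 3.81. How fat and spleen were dissociated is not given in the sources used here, so tissue and handling cannot be told apart for Cdkn1a, Pmaip1 and the other genes that were higher in fat.

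The 3 genes whose profile was most like that of Cdkn1a are all in the immediate early list. Likeness was the root mean square difference of log2(RPKM + 1), each gene centred on its own mean, over the 10 libraries. These span both tissues, so for Cdkn1a and Bcl2 likeness mostly restates a tissue change of similar size. Variation within a tissue was not compared. Fosl2 (0.20 log2 units), Fosb (0.22) and Nr4a1 (0.24) were the closest of the tested genes, where the profile of Cdkn1a itself had a root mean square of 2.25 and the median gene differed from it by 2.31. Fosl2 and Fosb encode AP-1 subunits and Nr4a1 a nuclear receptor induced by T cell receptor signals. Fosl2 stood at 33.1 ± 6.37 RPKM in VAT WT and 0.296 ± 0.152 in spleen WT. The closest to Bcl2 were Btla (0.14), an inhibitory receptor of lymphocytes, Ifi47 (0.16), an interferon-induced GTPase, and Smad1 (0.18), a transducer of BMP signals, against 0.90 for the profile of Bcl2 itself. Btla stood at 4.22 ± 0.28 RPKM in VAT WT, 8.02 ± 1.42 in VAT KO, 23.9 ± 2.48 in spleen WT and 23.7 ± 0.92 in spleen KO, in the same order as Bcl2 except that the spleen groups were level. For Bcl2l11 the closest were Mctp1 (0.22), Stard5 (0.24) and Crlf3 (0.26), against 0.49 for its own profile, so these likenesses are looser.

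Of the remaining BCL2 family, the A1 survival genes were higher in fat. Bcl2a1b stood at 165 ± 13.3 RPKM in VAT WT against 89.2 ± 28.6 in spleen WT (log2 change 0.91 ± 0.17, limma adjusted p = 0.00207; KO 1.27, adjusted p = 0.00028). Bcl2a1d stood at 161 ± 16.6 against 63.7 ± 16.4 RPKM (1.34 ± 0.17, limma adjusted p = 8.1e-05; KO 1.80, adjusted p = 9.8e-06). Bcl2a1a passed in KO (1.19, adjusted p = 0.0154). These 3 genes are near-identical copies, so how reads were split between them is not known and their separate values are uncertain. Over all genes 10.7% were higher and 15.4% lower in WT, and 7.65% and 6.94% in KO. Of 4 tested genes of the survival list 2 were higher in WT and 3 in KO, and 0 were lower; the fourth, Bcl2l12, named here to complete the list, stood at -0.66 in WT and -0.18 in KO. Of 6 tested BH3-only and killer genes, 2 were higher in WT, Bik and Bnip3, and 0 passed in KO. Bik had a log2 change of 2.06 ± 0.32 in WT (limma adjusted p = 0.00047) and 0.59 in KO (adjusted p = 0.249). Its spleen WT values were near the floor, at 0.029 and 1.01 RPKM beside a mean of 5.10 in VAT WT, so its WT change is loose. Bnip3 had a log2 change of 0.86 ± 0.22 in WT (limma adjusted p = 0.0119).

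Downstream of the mitochondrion, the genes of the apoptosome, caspases and their inhibitors were read from a list of 23, all tested. In WT 0 were higher and 5 lower in fat, beside 10.7% and 15.4% of all genes. Those lower included the initiator Casp8 (log2 change -0.48 ± 0.13, limma adjusted p = 0.0174), Diablo (-0.68 ± 0.22, adjusted p = 0.0360), whose product relieves caspase inhibition, and Aifm1 (-0.69 ± 0.23, adjusted p = 0.0411), which encodes a mitochondrial flavoprotein. In KO, 1 of the 23 was higher, Apaf1, the scaffold of the apoptosome (0.80 ± 0.23, adjusted p = 0.0361), and 0 were lower, with Casp8 at -0.21, Diablo at -0.30 and Aifm1 at -0.26. The list's median was -0.34 in WT and -0.21 in KO, beside -0.12 and -0.09 over all genes. The difference between genotypes was not called for any gene of the table (interaction, below).

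Among 14 genes that feed into Treg survival, 4 were higher and 3 lower in VAT WT, beside 10.7% and 15.4% of all genes, and 3 higher and 2 lower in VAT KO, beside 7.65% and 6.94%. Il7r, the IL-7 receptor chain, was higher in fat (log2 change 1.32 ± 0.15 in WT, limma adjusted p = 5.4e-05). The kinases Pim1 and Pim2, which support T cell survival, went opposite ways, Pim1 at 2.37 ± 0.31 (limma adjusted p = 0.00013) and Pim2 at -1.08 ± 0.17 (adjusted p = 0.00049).

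The comparison of KO with WT asked what loss of Srebf2 did to these genes in each tissue. In VAT, 0 of the 9 genes were called, where 44 of 10429 genes (0.422%) were, and in spleen 0 of the 9 and 0 of all genes (0%; 873 at an unadjusted p under 0.05). In VAT 767 genes had an unadjusted p under 0.05. The median log2 change of the 9 was 0.06 in VAT and 0.003 in spleen, beside 0.02 and -0.03 over all tested genes.

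Bcl2 had the smallest p of the 9 in VAT. Its values of 17.3, 18.9 and 18.7 RPKM in KO lay above all 3 WT values, whose highest was 12.6. The means were 18.3 ± 0.90 and 10.49 ± 1.88 RPKM (SD, n = 3 each), a log2 change of 0.76 ± 0.15 (95% interval 0.44 to 1.08; limma adjusted p = 0.0520). It fell on the other side of the threshold in 4 of 19 alternatives: with genes of a mean of at least 5 RPKM (limma adjusted p = 0.0415), without VAT WT replicate 2 (0.89, adjusted p = 0.0404), and without spleen WT replicate 2 (0.0313) or replicate 3 (0.0311). VAT WT replicate 2 had the highest Bcl2 of its group and stood apart in 3 lists of other-cell markers. It summed to 220.3 RPKM for the B cell list against 100.5 and 62.8 in replicates 1 and 3, to 190.6 for CD8, NK and gamma-delta T cells against 82.9 and 74.7, and to 217 for Mmp9 against 129 and 137. Of the 190.6 RPKM, 178.5 was Nkg7, and Mmp9 was the only measured gene of the neutrophil list, so these 2 lists rest mostly on single genes. The part of other cells in the Bcl2 value of this library was not tested. Over the 19 the log2 change ran from 0.59 to 0.89 and the adjusted p from 0.0311 to 0.283. In spleen the log2 change of Bcl2 was 0.10 ± 0.18 (interval -0.30 to 0.49; adjusted p = 0.869). The interaction, 0.66 ± 0.23, did not pass (limma adjusted p = 0.632), so a tissue difference in the genotype effect was not shown. The summed myeloid markers were higher in every VAT KO library than in any VAT WT library. Most of that sum was 1 gene, Ctss, a lysosomal protease. Ctss stood at 35.3 ± 13.6 RPKM in KO against 12.9 ± 1.07 in WT (limma adjusted p = 0.0449). Of the 3 myeloid markers tested, only Ctss was called. Adgre1 was level, with a mean of 0.145 RPKM for WT beside 0.155 for KO. Fcer1g had a WT mean of 0.785 RPKM, and its KO libraries spread from 0.160 to 3.95. The defining myeloid genes Lyz2, Csf1r and Itgam were not analysed here, and the part of such cells in the value of Bcl2 was not tested.

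Pmaip1 had a lower mean in VAT KO and did not pass. Its KO mean was 18.8 ± 0.76 RPKM against 33.1 ± 9.95 in WT (SD, n = 3 each), 56.7% of WT, without overlap. The log2 change was -0.75 ± 0.23 (95% interval -1.246 to -0.253; limma adjusted p = 0.345), and it passed in 0 of 19 alternatives. Cdkn1a had means of 36.9 ± 13.2 RPKM in WT and 29.1 ± 2.95 in KO, with overlap, and a log2 change of -0.27 ± 0.25 (interval -0.81 to 0.27; adjusted p = 0.966). The immediate early sums given above were likewise lower in the VAT KO libraries than in VAT WT, and their part in the values of Pmaip1 was not tested. Of the 9 genes, Bcl2, Mcl1 and Pmaip1 had VAT genotype groups that did not overlap, 2 higher and 1 lower in KO, where 15.1% of all tested genes did not overlap (8.97% higher, 6.16% lower).

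Bcl2l11 stood higher in KO in each tissue without passing. In VAT the means were 3.05 ± 1.37 in KO and 1.57 ± 0.72 RPKM in WT with overlap (log2 change 0.63 ± 0.28, interval 0.02 to 1.248; limma adjusted p = 0.656). In spleen they were 4.23 ± 0.27 and 2.62 ± 0.48 RPKM (n = 2 each) without overlap (log2 change 0.54 ± 0.35, interval -0.22 to 1.29; adjusted p = 0.669). Bcl2l1 in VAT stood at -0.23 ± 0.21 (interval -0.70 to 0.23; adjusted p = 0.966). Mcl1 had log2 changes of 0.11 ± 0.11 in VAT (-0.14 to 0.35; adjusted p = 0.973) and 0.29 ± 0.14 in spleen (-0.01 to 0.59; adjusted p = 0.596). Bax at -0.03 ± 0.14, Bbc3 at 0.06 ± 0.23 and Mdm2 at 0.13 ± 0.16 in VAT lay within their errors of 0. In spleen Bbc3 had the largest log2 change of the 9, 0.58 ± 0.28 (interval -0.03 to 1.18; adjusted p = 0.596), with both KO values above both WT values. In spleen 3 of the 9 did not overlap, Mcl1, Bcl2l11 and Bbc3, all higher in KO, where 32.6% of all genes did not (15% higher, 17.5% lower).

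None of the wider apoptosis lists had a gene that passed between genotypes. This held for the 4 tested survival genes, 6 BH3-only and killer genes, 13 p53 regulators, 27 p53 targets and 23 genes of the apoptosome and caspases, in VAT and in spleen. Over all tested genes only 0.422% passed in VAT and 0% in spleen, so the absence of calls does not set these lists apart. The target with the smallest p in VAT was Fas, at 11.3 ± 3.24 RPKM in KO against 5.64 ± 0.45 in WT (log2 change 0.86 ± 0.19, limma adjusted p = 0.0902). Fas, like Bcl2, thus stood in VAT KO between VAT WT and spleen, the latter at 31.2 and 32.8 RPKM in WT and KO. The interaction of genotype and tissue was called for 0 of the 9 genes and 0 of 10429 (0%; 738 at an unadjusted p under 0.05).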

How the data were processed

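Poly(A) RNA of sorted Tregs was turned into libraries with SMART-seq v4 and Nextera XT, per the labels' protocols, which do not mark strand. STAR and mm10 are named in the submitters' processing notes. How reads were counted, on which gene models, and how genes were filtered and scaled was not stated. The authors deposited 1 table of RPKM values, per the file headers, so read depth and counting error are unknown. Of 11 labelled samples, 10 had a column with a matching name, and spleen KO replicate 1 was not analysed here, although the design had assumed every labelled sample. Another 1 column, named as spleen WT replicate 1, matches no label and was left out, so each spleen group rests on 2 libraries.

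Values were log2(RPKM + 1). A single limma fit (version 3.58.1, R 4.3.3, trend on) held the 4 group means of 10429 genes, with 6 residual and 6.44 prior degrees of freedom. Tests were two-sided. P-values were adjusted by Benjamini-Hochberg over the tested genes of a comparison and called under 0.05. Errors are SEs of changes and SDs of RPKM. The fit was tested on simulated data. Exon overlaps came from GENCODE on GRCm38, promoters and positions from RefSeq. Same-numbered libraries had correlated deviations of -0.147 to 0.049 between genotypes in VAT and -0.061 in spleen. Between tissues they were 0.092 and 0.184 in WT and 0.0031 and 0.046 in KO. No comparison had 3 pairs all above 0.1, so numbers were not taken as pairs. Comparisons with a spleen group had only 2 pairs, so this rule could not be met there. Pairing of fat and spleen by number was thus not excluded. The alternatives were other pseudocounts, filters, scalings and spreads, a replicate block, the compared groups alone and each library left out.

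The members, lists and tests were chosen with earlier results of these data known. The rule named the members, Srebf2, Foxp3, up to 6 called genes of each BCL2, p53 and apoptosis list, up to 3 of other lists, and the 3 genes closest to Bcl2, Bcl2l11 and Cdkn1a. A few genes falling under it are not reported here.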

Additional observations from a re-analysis of the deposited data

How the results depend on the processing

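The 4 tissue calls in each genotype (Bcl2, Bcl2l1, Pmaip1 and Cdkn1a) passed in the same direction in all 19 alternatives. With each library left out, the members called numbered 4 to 5 in WT and 4 to 5 in KO between tissues, 0 to 1 in VAT and 0 in spleen and in the interaction. With a mean of at least 5 RPKM, which leaves Bcl2l11 untested, 1 member was called in VAT. Genes called over the whole table in VAT fell from 44 to 20 with a pseudocount of 5. With a pseudocount of 0.1 there were 2 in spleen and 2 in the interaction, and 1757 in place of 2723 between WT tissues with only the groups compared. Leaving out libraries gave 2 to 59 genes in VAT, 0 to 1403 in spleen, 1730 to 3909 and 746 to 2204 between tissues in WT and KO, and 0 to 521 in the interaction. The highest spleen and interaction counts came without spleen WT replicate 3, the lowest in VAT without VAT KO replicate 3 or VAT WT replicate 1. Between KO tissues the lowest count came without spleen KO replicate 3, and between WT tissues without spleen WT replicate 2. The cause was not tested. With the replicate number as a block, members called stayed at 0, 0, 4, 4 and 0 in the 5 comparisons, and genes called were 39, 0, 2066, 1096 and 0. In WT, 41.0% of tissue calls were higher in VAT, against 48.2% with quantile normalization and 55.7% with median ratio scaling, and the median change of all genes was -0.12, -0.06 and -0.005.

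Of 45 member changes, 16 turned sign in some alternative, 35 times in all and 26 with a library left out, and none of them was called. With a pseudocount of 0.1 the log2 change in spleen was -0.0004475 for Bcl2l1, 0.02064 for Cdkn1a and 0.001226 for Mdm2, and with median ratio scaling 0.009246 for Mdm2. Bax between tissues was 0.02055 (WT) and 0.003085 (KO) with quantile normalization, 0.003457 and 0.01639 with median ratio scaling, and its interaction -0.01746 with quantile normalization. With libraries left out, the spleen change ran from -0.009775 to 0.2046 for Bcl2, -0.3274 to 0.3338 for Bcl2l1, -0.2229 to 0.0468 for Bax, -0.4942 to 0.09094 for Pmaip1, -0.3212 to 0.2383 for Cdkn1a and -0.2383 to 0.238 for Mdm2. The VAT change ran from -0.1187 to 0.04374 for Bax and -0.08694 to 0.3074 for Bbc3. The tissue change in WT ran from -0.268 to 0.001696 for Bax and -0.01412 to 0.6403 for Bbc3. The interaction ran from -0.5683 to 0.09289 for Bcl2l1, -0.074 to 0.1956 for Bax, -0.1342 to 0.3814 for Bcl2l11, -0.5132 to 0.04798 for Cdkn1a and -0.1079 to 0.3683 for Mdm2. Where a left-out library leaves 1 in a spleen group, that library is assumed to vary like the other groups.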
